A study of Saccharomyces cerevisiae with 51 samples.

Results

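The annotation of the before genome version held 6664 nuclear protein-coding genes of budding yeast. Of these, 185 (2.78%) held an intron and were not named RPL or RPS with a number. They were chosen from the gene models alone: a protein-coding gene on a nuclear chromosome was taken where neighbouring exon records lay 20 bp or more apart, and genes named RPL or RPS with a number were left out. The 88 ribosomal protein genes that also have introns, of 132 such names, are given beside them, as are the 6391 nuclear protein-coding genes without an intron. The 20 bp limit fell in an empty range. The 45 genes outside it had gaps of 1 bp, and the shortest gap inside it was 49 bp. Of the 45, 3 had a gene name, EST3, ABP140 and OAZ1, which are known for programmed ribosomal frameshifting. A further 11 mitochondrial genes with gaps between exons were not on nuclear chromosomes and were left out. RPP1B, which encodes an acidic ribosomal stalk protein, remained among the 185 because its name has another form. So did ASC1, a protein of the small ribosomal subunit, and the mitochondrial ribosomal protein genes MRPL44 and YML6.

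An intron is a stretch of a transcript that the spliceosome cuts out before translation, using a 5′ splice site, a branch point and a 3′ splice site. Budding yeast has lost most introns in its evolution, and the remaining ones are known to lie mostly near the 5′ end of the gene. Outside the ribosomal proteins they are known from actin and tubulin genes, from meiotic genes, some of which are spliced efficiently only in meiosis, and from genes that control their own expression through splicing, such as YRA1.

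The study made 51 chromatin immunoprecipitation sequencing libraries from cells of the BY4741 background, grown in YPD or in drop-out medium without adenine and methionine, to ask how centromeres bear on mitotic condensation of chromosome arms. For each of 13 combinations of strain and treatment, input DNA, histone H3 and H3 phosphorylated at serine 10 (H3pS10) were sequenced. Cells given 1 nM beta-estradiol (E2) for 3 hours were ipl1-TetR-mCh, sgo1-TetR-mCh, sgo1 delta, H3-S10A and wild type (WT), and the same 5 strains were sampled untreated. Cells heat treated at 37 °C for 90 minutes were ipl1-321, cdc15-1 and WT. WT with and without E2 had 3 numbered replicates, and every other group 1 library. The files used here give chromosome lengths, bins and gene records for a version of the genome called after and one called before, and no value of any library. Library depth is therefore unknown, no H3pS10 level at these genes was computed, and every count below is an exact count of annotation records with no sampling error and no test.

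The 185 genes held 192 introns, 1 in each of 178 genes and 2 in each of 7, and no gene had more. Most were short. They had a median length of 98 bp, a range of 49 to 1002 bp and quartiles at 83 and 144 bp. Of the 192, 103 (53.65%) were under 100 bp and 47 (24.48%) were from 100 to under 150 bp. Of the rest, 7 fell between 150 and 200 bp, 11 between 200 and 300 bp and 15 between 300 and 500 bp, and 9 reached 500 bp or more. The 90 introns of the ribosomal protein genes had a median of 408.5 bp and a range of 147 to 561 bp. Of these 90, 70 (77.78%) were from 300 to under 500 bp and none was under 100 bp. The ranges of both sets overlapped, and the longest introns of all lay outside the ribosomal proteins.

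**Figure D1:**
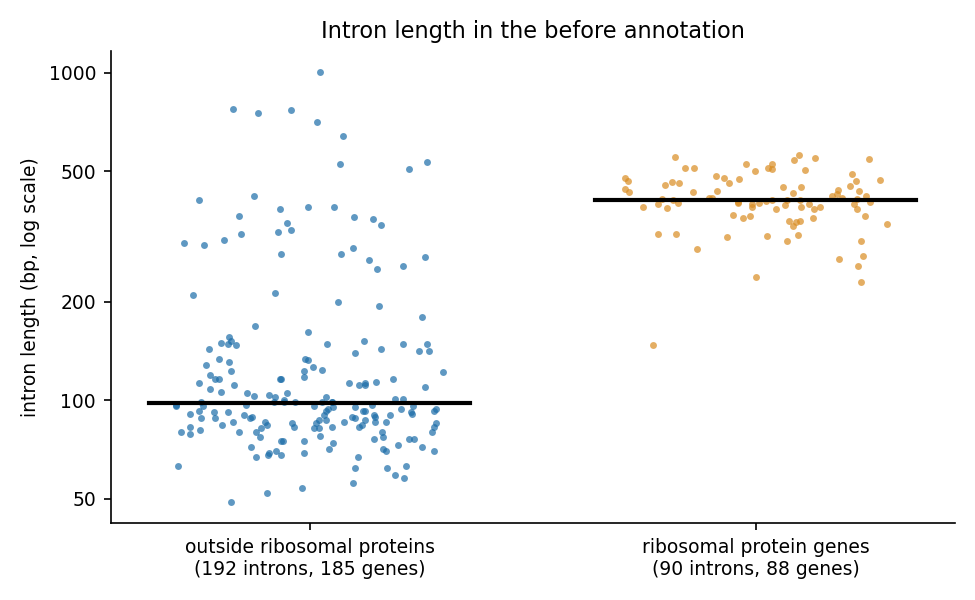
Length in bp (log scale) of every intron in the 185 genes outside ribosomal proteins (left) and in the 88 ribosomal protein genes (right). Each point is an intron and black lines are medians, 98 bp at the left and 408.5 bp at the right. The left set is dense below 150 bp with a sparse upper part that reaches 1002 bp.

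The longest intron belonged to DBP2 (YNL112W), a DEAD-box RNA helicase gene, with 1002 bp on chromosome XIV from 414912 to 415913. YHL050C, a gene of unknown function near the left end of chromosome VIII, came next with 773 bp. YRA1 (YDR381W), an mRNA export adaptor gene, had 766 bp on chromosome IV from 1239948 to 1240713 in the before version. GCR1 (YPL075W), the activator of glycolytic genes, had 751 bp, and YJR079W, a gene without a standard name, had 705 bp. The intron made up 37.9% of the span of DBP2, 52.9% of YRA1 and 68.1% of YJR079W, the highest share of any of the 185. The intron of YJR079W was overlapped in part by AIM24 on the opposite strand. The median share was 13.8% of the span, against 49.3% in the ribosomal protein genes with introns.

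The shortest intron, 49 bp, lay in YJR112W-A, an open reading frame without a standard name. The silent mating-type gene HMRA1 (YCR097W) held both the next ones, of 52 and 54 bp. TAD3 (YLR316C), which encodes a subunit of the tRNA adenosine deaminase, had an intron of 56 bp, and TAN1 (YGL232W), needed for tRNA acetylation, one of 58 bp.

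The first intron usually stood close to the start codon. The median was 40 coding bases before it, with a range of 1 to 1920. In 79 genes (42.7%) it came within 30 coding bases, that is within 10 codons, and in 134 (72.43%) within 100. Counted as a share of the coding sequence, 115 genes (62.16%) had it in the first 10% and 19 genes had it past the middle. In the ribosomal protein genes the median was 15 coding bases, with a range of 1 to 309. There 59 of 88 (67.05%) had it within 30 coding bases and 2 past the middle. No exon record of either set reached beyond the coding sequence and its stop codon, so introns in a leader before the start codon cannot appear in this annotation.

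In 2 genes the intron cut the start codon itself after its first base. One was COX5B (YIL111W), an isoform of cytochrome c oxidase subunit V, with a first exon of 1 base and an intron of 88 bp. The other was NSP1 (YJL041W), a nuclear pore protein gene, with a first exon of 1 base and an intron of 118 bp. In 9 further genes the first exon was the start codon alone, 3 bases. These were MND1, a partner in meiotic strand exchange; MPT5, an mRNA-binding Puf protein; QCR9, a subunit of respiratory complex III; VMA10, a subunit of the vacuolar proton pump; BET4, a subunit of a prenyl transferase; BOS1, a SNARE; DCN1 and UBC12, both of the pathway that attaches the ubiquitin-like protein Rub1; and YSF3, a splicing factor subunit.

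At the other extreme, 8 genes had more than 1000 coding bases before the intron. Among them, YIL177C and YJL225C near chromosome ends had 1161 each and shared a gene model, so they are not independent. SRC1 (YML034W), an inner nuclear membrane protein gene known for alternative 5′ splice sites, had 1920 coding bases before an intron of 126 bp. YPL109C, named CQD1 in the RefSeq gene table, had 1793 before an intron of 152 bp, and PCH2 (YBR186W), the ATPase of a meiotic checkpoint, had 1551 before 113 bp. DBP2 had 1273 before its long intron, and REC114 (YMR133W), needed for meiotic DNA breaks, had 1242 before 116 bp. The intron of REC114 was the nearest to the 3′ end by share, with 96.5% of the coding sequence before it. HAC1 (YFL031W), the transcription factor of the unfolded protein response, had 661 coding bases (92.2%) before 252 bp on chromosome VI from 75840 to 76091. That intron is known to be removed by the endonuclease Ire1 and a tRNA ligase rather than by the spliceosome.

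**Figure D2:**
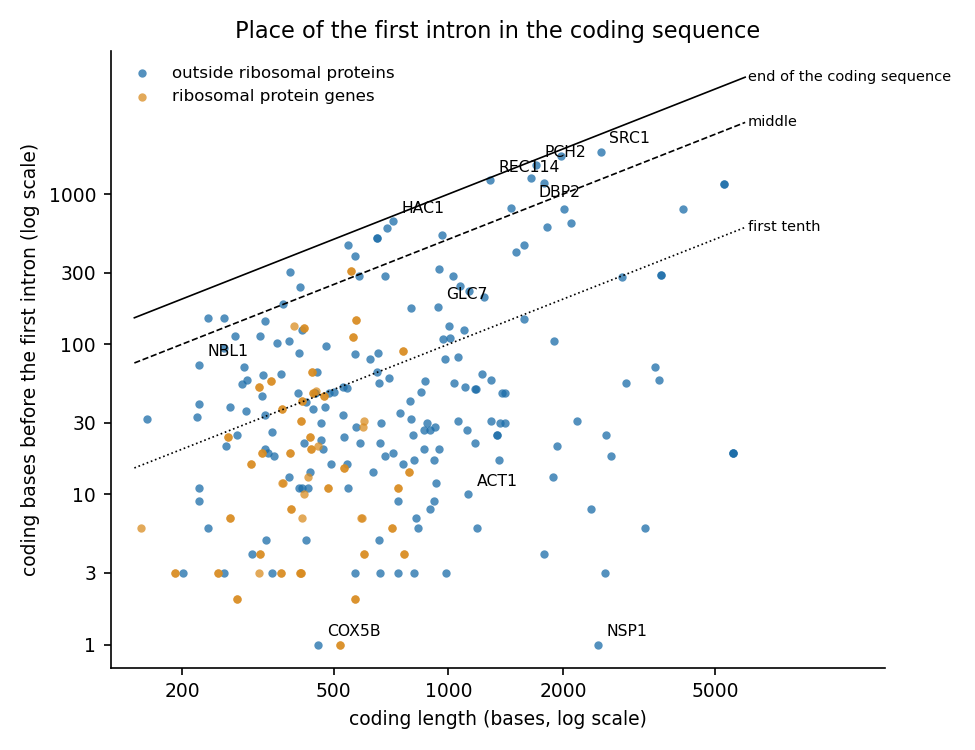
Coding bases before the first intron against the coding length of the gene, both on log scales, for genes outside ribosomal proteins (185 genes, blue) and ribosomal protein genes (88 genes, orange). Lines mark the end, the middle and the first 10% of the coding sequence. Most points lie below the lowest line, COX5B and NSP1 lie at 1 base, and SRC1, PCH2, REC114, DBP2 and HAC1 lie near the top line.

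Introns stood in all 3 positions relative to the reading frame. Of the 192, 69 (35.94%) lay between codons, 63 (32.81%) after the first base of a codon and 60 (31.25%) after the second. In the ribosomal protein genes the counts were 39, 33 and 18 of 90. The length was divisible by 3 in 70 of the 192 introns and in 32 of the 90 of the ribosomal protein genes.

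The genes were shorter in coding length than genes without introns and longer than the ribosomal protein genes with introns. Their median coding length was 735 bases, against 417 in the ribosomal protein genes and 1107 in the 6391 genes without introns. All 3 ranges overlapped widely, from 162 to 5580 bases, from 156 to 786 and from 51 to 14733. In this annotation, 36 of the 185 (19.46%) had a systematic name only. The counts were none of the 88 and 1587 (24.83%) of the 6391. The RefSeq gene table gave another symbol for 11 of the 185. These were AML1 and otherwise genes with a systematic name only in this annotation, such as YPL109C.

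The 7 genes with 2 introns had spans of 395 to 1093 bp, against a median of 903 bp in all 185, and 3 of them had a second intron longer than the first. SUS1 (YBR111W-A), a small protein shared by the SAGA deubiquitination module and the mRNA export complex TREX-2, had introns of 80 and 70 bp, with exons of 71, 140 and 80 bases. They lay on chromosome II from 462210 to 462289 and from 462430 to 462499. VMA9 (YCL005W-A), a subunit of the vacuolar proton pump, had introns of 77 and 96 bp around an exon of 81 bases, and a first exon of 11 bases. HMRA1, the silent copy of the a1 mating-type gene, had introns of 54 and 52 bp around an exon of 246 bases, on chromosome III from 293940 to 293993 and from 294240 to 294291. The first exon was 11 to 105 bases in these examples and the middle one 81 to 246.

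DYN2 (YDR424C), the dynein light chain, had the shortest middle exon of the 7, 23 bases, between introns of 96 and 80 bp. YOS1 (YER074W-A), needed for transport from the endoplasmic reticulum to the Golgi, had the longest pair, 102 and 111 bp around 108 bases. AML1 (YGR001C), listed as EFM5 in the RefSeq gene table, encodes a methyltransferase of a translation elongation factor and had introns of 62 and 93 bp around 479 bases. TAD3 had introns of 68 and 56 bp around 52 bases. No intron of the 7 genes exceeded 111 bp. The 2 ribosomal protein genes with 2 introns were RPL7A and RPL7B.

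**Figure D3:**
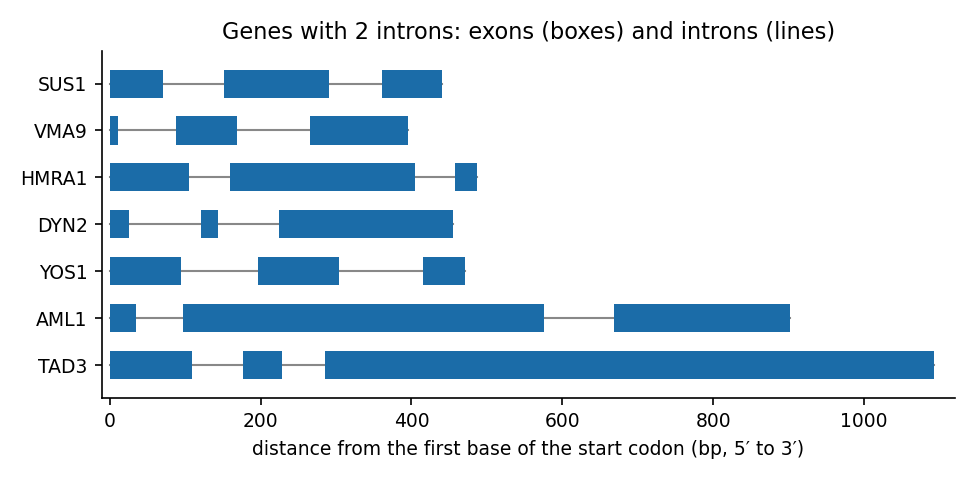
Gene models of the 7 genes with 2 introns, drawn to scale in bp from the first base of the start codon, with boxes for exons and lines for introns. DYN2 and TAD3 have middle exons of 23 and 52 bases, and AML1 has one of 479 bases.

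The genes were also counted on gene lists for 14 pathways, which together held genes with and without introns. The lists were chosen with earlier results known and leave out most of the 185, so their shares describe these lists only. The lists held 58 entries for genes among the 185, and the share of each list is read here beside the 2.78% of all nuclear protein-coding genes. The share was highest for ubiquitin-like proteins with their E1 and E2 enzymes, 8 of 30 (26.67%), and for meiosis, 13 of 53 (24.53%). It was 8 of 42 (19.05%) for vesicle coats and SNAREs, 5 of 30 (16.67%) for the actin cytoskeleton, 4 of 26 (15.38%) for mRNA export, 4 of 30 (13.33%) for tubulin and microtubule motors and 2 of 20 (10%) for the chromosomal passenger complex and protein phosphatase 1. It was 3 of 37 (8.11%) for the respiratory chain and ATP synthase, 3 of 39 (7.69%) for translation factors, 6 of 95 (6.32%) for splicing, 1 of 33 (3.03%) for the proteasome and 1 of 38 (2.63%) for the kinetochore. None of 14 cohesin and condensin genes and none of 10 histone genes had one. Whether any list differs from the rest was not tested.

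**Figure D4:**
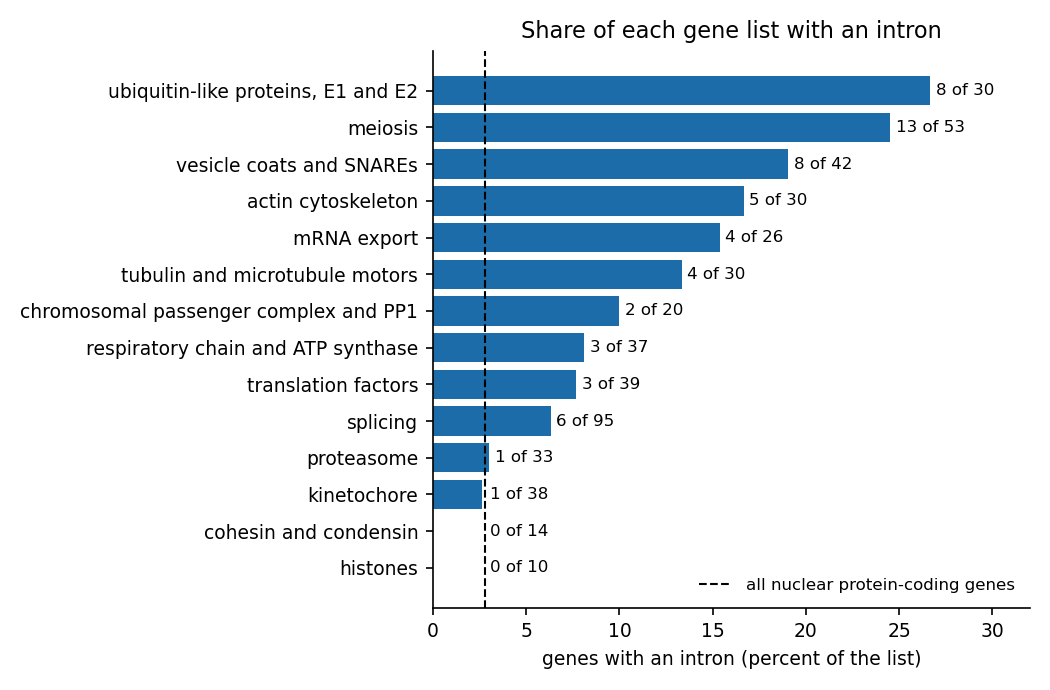
Percent of the genes of each list that are among the 185 intron-containing genes, with the counts beside the bars. The dashed line marks the 2.78% of all nuclear protein-coding genes. The bars run from 0 for cohesin and condensin and for histones to 26.67% for ubiquitin-like proteins with their E1 and E2 enzymes.

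Every intron-containing gene on the actin and tubulin lists had its first intron near the start codon, after 10 to 25 coding bases. ACT1 (YFL039C), the single actin gene, had an intron of 309 bp after 10 coding bases, on chromosome VI from 54378 to 54686. Of the actin regulators, COF1 (cofilin) had 179 bp after 14 bases and PFY1 (profilin) 209 bp after 13. ARP2, a subunit of the branching complex, had 123 bp after 22 bases, and SAC6 (fimbrin) had 111 bp after 21. The other 25 genes of that list, among them ARP3 and the myosin genes, had none.

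All 4 genes of the tubulin and motor list with an intron had 25 coding bases before the first one. TUB1 (YML085C), the major alpha-tubulin gene, had 116 bp on chromosome XIII from 99260 to 99375. TUB3 (YML124C), the minor alpha-tubulin gene, had 298 bp on the same chromosome from 23361 to 23658. CIN2, a tubulin folding factor, had 80 bp, and DYN2 had 96 bp in its first intron. The beta-tubulin gene TUB2 and the gamma-tubulin gene TUB4 had no intron.

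The 13 meiotic genes had introns of 70 to 152 bp, with a median of 90 bp. Their introns were spread along the genes. In 8 of the 13 more than 100 coding bases preceded the intron, against 51 of all 185 (27.57%). The median was 113 coding bases, against 40 in all 185.

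Among genes for the meiotic DNA breaks, REC114 had its intron after 1242 bases, REC107 after 316, REC102 after 174 and MEI4 after 63. Of the strand exchange genes, the recombinase gene DMC1 (YER179W) had 92 bp after 132 bases, SAE3 86 bp after 113, HOP2 70 bp after 55 and MND1 83 bp after 3. Of the genes that act in crossover formation, HFM1 (also MER3), a helicase, had 152 bp after 58 bases and SPO22 90 bp after 55. AMA1, the meiotic activator of the anaphase-promoting complex, had 93 bp after 1183 bases, and SPO1, a sporulation gene, had 84 bp after 105. SPO11, whose protein makes the breaks, and the regulators IME1 and NDT80 had none. GMC2, a factor of meiotic chromosome synapsis that was not on the list and was chosen after its values were seen, had 82 bp after 384 bases.

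Of 20 genes listed for the chromosomal passenger complex, which phosphorylates serine 10 of H3, and for protein phosphatase 1, 2 (10%) had an intron. GLC7 (YER133W), the catalytic subunit of protein phosphatase 1, which is known to oppose the Ipl1 kinase at serine 10 of H3, had an intron of 525 bp after 177 coding bases. It lay on chromosome V from 432672 to 433196 and made up 35.9% of the span of the gene. NBL1 (YHR199C-A), the borealin-type subunit of the chromosomal passenger complex that holds Ipl1, had 67 bp after 73 coding bases, on chromosome VIII from 498720 to 498786. GLC7 was among the 9 introns of 500 bp or more, and NBL1 was among the 103 under 100 bp. The other 18 genes of that list, IPL1, SLI15, BIR1, SGO1 and BUB1 among them, had no intron.

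MCM21 (YDR318W), an inner kinetochore gene, was the only one of 38 kinetochore genes with an intron, 83 bp after 52 coding bases. MOB1 (YIL106W), which encodes the partner of the Dbf2 kinase below Cdc15 in the mitotic exit network and was chosen after its values were seen, had 85 bp after 20 coding bases. The genes altered in the strains, IPL1, SGO1, CDC15 and the H3 genes, were not among the 185.

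**Figure D5:**
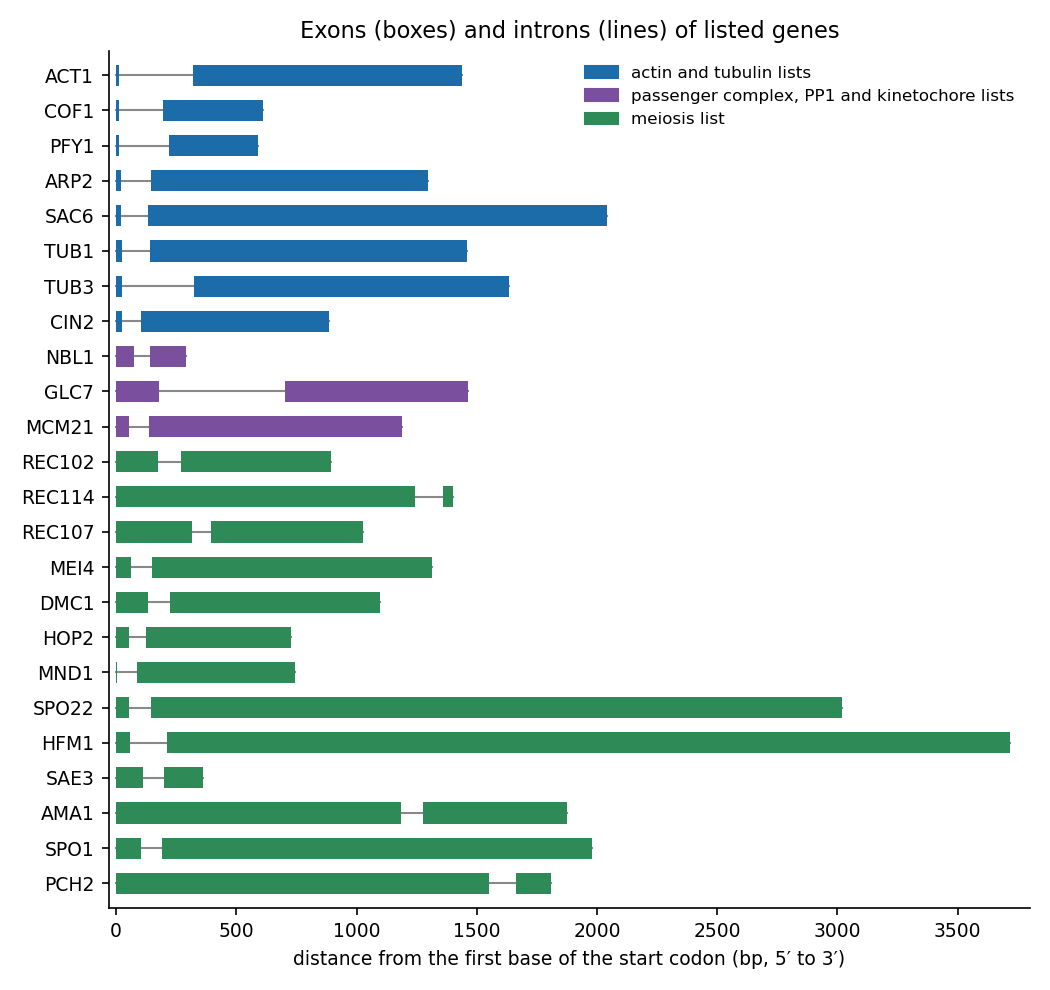
Gene models, to scale in bp from the first base of the start codon, of the intron-containing genes on the actin and tubulin lists (blue; DYN2 is drawn with the genes with 2 introns), the passenger complex, PP1 and kinetochore lists (purple) and the meiosis list (green). Boxes are exons and lines are introns. The blue genes all have a first exon of 10 to 25 bases, and in REC114, AMA1 and PCH2 the intron lies past the middle of the coding sequence.

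Of 95 genes on the splicing list, 6 (6.32%) had an intron, against 2.78% of all nuclear protein-coding genes. MUD1, a U1 snRNP protein, had 89 bp after 8 coding bases. The Sm and Sm-like protein genes SMD2, LSM7 and LSM2 had 90 bp after 5, 96 bp after 18 and 128 bp after 54. YSF3, of the U2 snRNP complex SF3b, had 122 bp after 3, and STO1, the large cap-binding subunit, had the longest, 322 bp after 25. In 5 of the 6, the intron came within 30 coding bases, against 79 of all 185 (42.7%).

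The mRNA export genes DBP2, YRA1, HRB1 and SUS1 ranged from 70 to 1002 bp in intron length. HRB1 (YNL004W), an SR-type mRNA-binding protein gene, had 342 bp after 30 bases. In DBP2 and YRA1 the intron followed 77.6% and 41.9% of the coding sequence. Both were thus among the longest introns and among those far from the start codon.

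In the ubiquitin list, genes of the E2 family, with MMS2 counted among them, made up 7 of the 8. UBC4 and UBC5, close paralogs that act in protein turnover, had 95 and 90 bp. UBC9, the E2 for SUMO, had 110 bp after 38 bases and UBC12, the E2 for Rub1, 134 bp after 3. UBC13 and MMS2, which act as a pair in DNA damage tolerance, had 268 bp after 30 bases and 85 bp after 11. UBC8 had 123 bp after 5 bases, and RUB1 had 73 bp after 149 bases, past the middle of its coding sequence.

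The introns of the 8 genes on the list of vesicle coats and SNAREs ran from 89 to 200 bp. SAR1, the GTPase of the COPII coat, had 139 bp after 28 bases, and SEC27, a COPI subunit, 200 bp after 18. Of the SNAREs, BET1 had 131 bp after 11 bases, BOS1 89 bp after 3, SFT1 141 bp after 36, NYV1 141 bp after 16 and SNC1 113 bp after 102. SEC17, which helps take SNARE complexes apart, had 116 bp after 30.

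Of the respiratory genes, QCR9 had 213 bp after 3 bases and QCR10 63 bp after 6, and with COX5B all 3 had their intron within 6 coding bases. PRE3, a catalytic subunit of the proteasome, had 116 bp after 65. Of the 185 genes, 127 were on none of the lists.

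Paralogs allowed gene models to be compared. Of 11 pairs chosen with the gene models known, 4 had an intron in both genes, and in all 4 it followed the same number of coding bases. TUB1 and TUB3 had 25 bases before introns of 116 and 298 bp. UBC4 and UBC5 had 47 bases before introns of 95 and 90 bp. EPT1 and CPT1, enzymes of phospholipid synthesis, had 50 bases before 91 and 92 bp, and YSC84 and LSB3, actin-binding proteins, had 47 bases before 168 and 94 bp. The place was shared in these pairs, and the length differed by 1 bp in EPT1 and CPT1 and by 182 bp in TUB1 and TUB3.

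In the other 7 pairs 1 gene had an intron and its partner had none. COX5B, SNC1, TEF4, IMD4, HRB1, MRK1 and ECM33 had introns of 88 to 408 bp, and COX5A, SNC2, CAM1, IMD3, GBP2, RIM11 and PST1 had none. Among these, TEF4 encodes a translation elongation factor subunit and IMD4 an enzyme of guanine nucleotide synthesis.

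Some introns held other genes. Of 77 nuclear snoRNA genes, 5 lay wholly inside introns of the 185 and 3 inside introns of ribosomal protein genes, all 8 on the strand of the host. A snoRNA is a small nucleolar RNA that guides modification of other RNAs, and one in an intron is released from the spliced-out RNA.

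EFB1 (YAL003W), a translation elongation factor gene, held snR18 in an intron of 366 bp. TEF4 held snR38 in 326 bp, ASC1 (YMR116C), a protein of the small ribosomal subunit, snR24 in 273 bp, and IMD4 snR54 in 408 bp. NOG2 (YNR053C), a GTPase of ribosome assembly, held snR191 in 532 bp, where it took up 51.5% of the intron. The snoRNA began 79 to 113 bp from the 5′ end of the intron in these 5 hosts and ended 105 to 226 bp from its 3′ end. The hosts' introns were all among the 32 of 250 bp or more. No tRNA gene lay in an intron.

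Among the 185, the only protein-coding record wholly inside an intron was YGL177W, in the intron of MPT5 (640 bp) on the same strand. In the ribosomal protein genes it was YMR141W-A, inside the intron of RPL13B on the opposite strand. A further 16 protein-coding genes overlapped introns of 13 of the 185 in part, 10 of them on the opposite strand. BUD25 (YER014C-A) had an intron of 508 bp overlapped at one end by HEM14 and at the other by FAA2, both on the opposite strand. VMA9 was overlapped in both introns by YCL007C.

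The 185 genes were on all 16 nuclear chromosomes, from 4 on chromosome XV and 3 on chromosome I to 22 on chromosome IV. On chromosome XV they were 4 of 606 protein-coding genes (0.66%), namely RRT8, LDS2, PFY1 and YOR318C, against 2.19% to 4.31% on the other 15. Of these 4, YOR318C matched no locus tag in the RefSeq gene table. The same chromosome held 8 of the 88 ribosomal protein genes with introns. Of the 185, 86 were on the plus strand and 99 on the minus strand.

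Of 6648 neighbouring pairs of nuclear protein-coding genes, 5 had both genes among the 185. Whether such pairs are more frequent than a random placement would give was not tested. CMC2 and YBL059W on chromosome II were divergent, 54 bp apart. YRA1 and YDR381C-A, and PTC7 and NMD2, were convergent, and ECM9 and YKR005C, and RRT8 and LDS2, were in tandem.

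A subset near chromosome ends shared gene models. Within 20 kb of an end lay 14 of the 185 (7.57%). The counts were 308 of 6391 genes without introns (4.82%) and 0 of 88 ribosomal protein genes with introns. Whether these shares differ was not tested. All 14 were YRF1 helicase genes or had systematic names only. Of them, 13 had the same intron length and an exon of the same length as another of the 13. YRF1-3, YRF1-6, YRF1-7 and YPR202W had 148 bp after 19 coding bases. YIL177C and YJL225C had 388 bp after 1161, and YEL076C-A and YLR464W had 279 bp after 513. YBL111C, YHR218W, YLL066C, YLL067C and YML133C had introns of 99 bp. The YRF1 genes belong to a repeated subtelomeric element, so these 13 models are not independent of each other, and reads may not be separable between such copies. Without the 13, 172 genes remained.

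The intervals between chromosome arms, where the centromeres lie, had several of the 185 close by. An interval was read from the last gene with a left-arm name to the first with a right-arm name. Within 10 kb of one there were 16 of the 185 (8.65%), on 10 chromosomes, against 2 of 88 ribosomal protein genes with introns (2.27%) and 184 of 6391 genes without introns (2.88%). Within 20 kb the counts were 21 (11.4%), 2 (2.27%) and 352 (5.51%), and within 30 kb 24 (13.0%), 3 (3.41%) and 529 (8.28%). The median distance was 181 kb, against 236 kb in the ribosomal protein genes and 216 kb in the genes without introns. Whether these shares differ was not tested.

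In 3 places a gene of the 185 bordered an interval directly. These were TFC3 (YAL001C), a subunit of the RNA polymerase III factor TFIIIC, on chromosome I, AML1 on chromosome VII and PRE3 on chromosome X. DID4 (YKL002W), a subunit of the ESCRT-III membrane-remodelling complex, lay 841 bp away on chromosome XI, and QCR10 lay 1771 bp away on chromosome VIII. On chromosome XI, DID4, ECM9, YKR005C and SFT1 all lay within 10 kb.

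The after and before versions differ on chromosome IV, which measured 1531615 bp after and 1535038 bp before. The introns of all 185 genes had the same number, length and place in the coding sequence in both. Of the 185, 13 had another start coordinate after than before (7.03%), against 8.87% of all 6664 nuclear protein-coding genes, and all 13 had moved by -3423 bp. They were 13 of 22 on chromosome IV (59.1%), where 591 of 853 protein-coding genes (69.3%) had moved. The moved genes lie on the right arm and the 9 unmoved ones on the left.

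On the right, nearest to the interval between the arms, MAF1 (YDR005C), the repressor of RNA polymerase III, started at 456518 after and 459941 before, 6616 bp from the interval. UBC5 started at 568916 after and 572339 before, and UBC13 at 629558 after and 632981 before. SAC6 started at 713022 after and 716445 before, and RUB1 at 733300 after and 736723 before. On the left, YDL012C (431108), ARP2 (399340), UBC9 (337487), MRK1 (312951) and KIN28 (267698), the kinase of TFIIH, had the same start in both.

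The authors' grid divides every nuclear chromosome into 500 bins, and the bins were 461 to 3071 bp wide. No intron of the 185 genes was longer than a bin of its chromosome, and 176 of 192 lay within a single bin of the before grid. The other 16, those of GLC7, ACT1, YRA1, DBP2 and 12 more, crossed a bin border. An intron covered a median of 6.74% of a bin width, from 2.28% to 79.4%. A bin value would thus mix an intron with its exons and neighbours.

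By midpoint, 7 of the 185 (3.78%) had another bin number after than before, against 3.98% of all nuclear protein-coding genes. On the left arm RPP1B was in bin 76 after and 75 before, HNT1 in 79 and 78, IWR1 in 84 and 83, and UBC9 in 111 and 110. On the right arm UBC5 was in bin 186 after and 187 before, UBC13 in 206 and 207, and KEI1 in 396 and 397. GLC7 (bin 376), NBL1 (bin 443), ACT1 (bin 100) and MCM21 (bin 361) had the same number in both.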

How the data were processed

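The labels describe 51 ChIP-seq libraries, grouped by their descriptions. Reads were aligned with Bowtie2 2.2.9, per the submitters' processing notes. Which genome build they used was not given in the sources used here, nor was the annotation release. In all, 6 deposited files hold chromosome lengths, bins and annotation records in bp, with no score and no value per library, so no count, signal or test over libraries was possible. Coordinates are 1-based and belong to the before version unless another is named.

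Introns were gaps of 20 bp or more between neighbouring exon records, each gene having 1 transcript. Coding bases before an intron were counted over exon records in transcript order, with the stop codon in the coding length. The step was tested on simulated data, and all 200 gene models were recovered. An arm interval runs between the genes with left-arm and right-arm systematic names, and distances run from the nearest end of a gene. A gene was placed in the bin of its midpoint.

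Genes and lists were chosen with earlier results of these data known, and paralogs with the gene models known. The rule for named genes took those with 2 introns, the 5 longest and 5 shortest introns, the 5 farthest from the start codon, those at the 20 bp limit, snoRNA hosts, list members, the 5 nearest the changed interval on each side and the 5 nearest any arm interval, with GLC7, NBL1, ACT1, TUB1 and TUB3. Other named genes, such as HAC1, NSP1, BUD25, those with a first exon of 3 bases, neighbouring pairs, chromosome end genes and those that changed bin, were chosen after their values were seen. Of the 185 identifiers, 182 matched a locus tag in the RefSeq gene table of assembly R64, used for names only. The others, YDR535C, YLR202C and YOR318C, matched none. Sequence was not used here. Python 3.11.15, pandas 2.3.3, numpy 2.4.6 and matplotlib 3.10.9 were used.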

Additional observations from a re-analysis of the deposited data

How the results depend on the processing

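The number of intron-containing genes was 185 with exon or coding records and in the after annotation, 230 with gaps of 1 bp admitted, 184 with a minimum of 50 bp and 182 without ASC1 and names starting RPP or MRP. The median intron length was 98 bp. It was 90 bp with 1 bp gaps admitted, 99 bp with a minimum of 50 bp or for first introns alone, and 97 bp without ASC1, RPP and MRP names. The median number of coding bases before the first intron was 40, and 58 with 1 bp gaps admitted. Alternatives chosen after seeing the data gave medians of 96 bp and 37.5 bases without the 13 genes of recurring models, 96 bp and 32 bases without genes that have a systematic name only, and 97 bp and 39 bases without HAC1. The count of 7 genes with 2 introns was the same under each alternative run for it, and 13 genes moved by coding records too. By first coding base 5 genes changed bin number, and 6 by the midpoint of the first intron, against 7 by the gene's midpoint. No paired analysis was possible because only coordinates, and no library's signal, are in these files, and leaving out each replicate was likewise not run.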

Other observations

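The annotation records of these genes are not uniform at the stop codon. Of the 185 genes, 117 have no stop codon record and their coding records run to the last exon base, and 68 have a stop codon record that the coding records leave out. The split follows the reading frame of the last intron. All 117 have a last intron inside a codon, and all 68 have it between codons. The same holds for the 88 ribosomal protein genes with introns, 49 without and 39 with the record. Of the 6391 genes without introns, 4 have no stop codon record. A coding length summed over coding records therefore holds the stop codon in 117 of the 185 and leaves it out in 68. This pattern was noticed in the data and its cause was not tested.

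A few further genes, on none of the lists, were chosen after their values were seen and stand for no group. The prefoldin genes GIM4 and GIM5 had 88 bp after 19 coding bases and 83 bp after 16. MOB2, the relative of MOB1, had 114 bp after 20 coding bases, as many as MOB1. The cyclin-dependent kinase genes KIN28 and PHO85 had 81 bp after 28 and 102 bp after 17. PTC7, a protein phosphatase gene, and CNB1, the regulatory subunit of calcineurin, had 93 bp after 55 and 76 bp after 52.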
